A study of Mus musculus with 16 samples.

Results

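The genes described here belong to the unfolded protein response of the endoplasmic reticulum (ER) and to the integrated stress response (ISR). They were chosen as a fixed list of 41 genes of the ATF4, ATF6 and XBP1 pathways, looked up by symbol in the gene count tables. Of the 41, 40 had a row in every library, among 48397 gene symbols in all, and all 40 passed the low-count filter that left 17038 genes for testing. The antisense RNA *Vldlr-as1* was looked up by its symbol, found no row and is not analysed here. The 40 genes comprised 4 sensors, 5 transcription factors, 6 effectors of the ISR, 8 genes of amino acid synthesis and tRNA charging, 11 folding factors of the ER and 6 genes of ER-associated degradation.

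The unfolded protein response is the program by which a cell matches its folding capacity to the load of proteins entering the ER. Its sensors in the ER membrane are IRE1, encoded by *Ern1*, which splices *Xbp1* mRNA, ATF6, which is cut in the Golgi and moves to the nucleus, and PERK, encoded by *Eif2ak3*, which phosphorylates the translation factor eIF2α. PERK shares that substrate with GCN2 (*Eif2ak4*), which senses uncharged tRNA, and phosphorylated eIF2α favours translation of ATF4 while it lowers protein synthesis in general. ATF6 and XBP1 raise chaperones and degradation factors of the ER, and ATF4 raises amino acid transporters, synthetic enzymes and tRNA synthetases. In neurons eIF2α phosphorylation is also known for its part in synaptic plasticity and memory. Splicing of *Xbp1*, cleavage of ATF6 and translation of ATF4 are not visible in counts per gene, so the values below are RNA levels only.

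The RNA came from primary hippocampal neurons of wild type CD1 mice, dissociated from pups of postnatal day 0 to 2 and lysed at 17 days in vitro (DIV). At 10 and 13 DIV they received 10-fold concentrated astrocytic medium. For the control neurons it came from immortalized *Apoe*-/- astrocytes, and for the other groups from immortalized astrocytes that secrete human apoE2, apoE3 or apoE4 lipoproteins. All groups therefore shared the genotype, the cytosine arabinoside given against non-neuronal cells and exposure to astrocytic medium, and the neurons kept their own mouse *Apoe* genes. There were 4 groups with 4 libraries each. The methods describe the replicates as independent neuronal cultures. The libraries held 14087723 to 34248172 counts on genes, with a median of 22221832, and the rarest member, *Trib3*, had 11 to 53 counts per library while the most abundant, *Canx*, had 8162 to 24638. Values are given as CPM, the usual unit of counts relative to the scaled library total. Libraries with the same replicate number deviated together from their group means, so a second fit that holds the replicate number as a block was run, and its value is given wherever it changes a call.

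Neuronal markers were high in every library, with a summed level of 9 markers of 2931 to 7346 CPM. Glial markers were present as well. The summed level of the astrocyte markers, 9 of 10 of which passed the filter, was 1418 to 3189 CPM in control neurons, 1316 to 3174 CPM with apoE2, 1707 to 6633 CPM with apoE3 and 1577 to 5405 CPM with apoE4. The libraries apoE2 replicate 4 and apoE4 replicate 2 stood apart in their reads, with 38.4 and 38.6% on no single gene and 0.69 and 0.359% of gene counts on *Lars2*, against 51.4 to 73.7% and 2.83 to 15.02% in the other libraries. Without apoE4 replicate 2 the *Edem1* call described below remained (adjusted p = 0.00858, edgeR) and without apoE2 replicate 4 it was lost (0.0553). In the fit with the replicate block, leaving out apoE4 replicate 2 took the members called with apoE3 from 3 to 1 and those with apoE4 from 2 to 3, with *Ern1* lost (0.0763), and leaving out apoE2 replicate 4 gave 4 and 2. In whole cultures, fewer cells of a type and less RNA per cell cannot be told apart.

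The promoters of the list show which of these genes carry the DNA elements of the pathways. A window from 250 bases before to 50 bases after the transcript start (RefSeq, build GRCm38.p6) was at hand for 36 members, that is all but *Atf6*, *Ppp1r15b*, *Nars* and *Manf*. Both strands were searched for 5 elements, none of which contains another. The ER stress response element (ERSE), read by ATF6 and XBP1 together with the factor NF-Y, is CCAAT and CCACG with 9 bases between them. It was found in 8 of the 36 members, or 22.2%, against 37 of 27025 genes with a window, or 0.137%. The copies lay between positions -212 and -26, with 0 the first base after the 250 upstream bases. They are shown here because of the 5 elements this one was found in the most members; no test was made. Each line gives the gene, the genome position and 30 bases in the sense of the gene, with the 2 fixed blocks of the element in capitals, and on the opposite strand these read CGTGG and ATTGG.
*Hspa5*, chr2:34772020-34772049, plus strand: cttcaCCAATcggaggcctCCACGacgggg
*Hsp90b1*, chr10:86705632-86705661, minus strand: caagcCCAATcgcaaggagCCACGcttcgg
*Hsp90b1*, chr10:86705527-86705556, minus strand: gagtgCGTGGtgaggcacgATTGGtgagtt
*Dnajc3*, chr14:118937822-118937851, plus strand: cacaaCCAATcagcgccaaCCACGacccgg
*Pdia6*, chr12:17266486-17266515, plus strand: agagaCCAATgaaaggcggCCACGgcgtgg
*Creld2*, chr15:88819515-88819544, plus strand: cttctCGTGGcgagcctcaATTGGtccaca
*Calr*, chr8:84847069-84847098, minus strand: caacgCGTGGtcgaccctcATTGGcccata
*Canx*, chr11:50325794-50325823, minus strand: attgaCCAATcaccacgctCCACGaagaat
*Syvn1*, chr19:6046527-6046556, plus strand: cgcaaCCAATcggcggtagCCACGggaaca

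The second form of the element (ERSE-II), ATTGG and CCACG with 1 base between them, was found in *Herpud1* alone among the members (2.78%) and in 12 of all 27025 genes (0.0444%). The C/EBP-ATF element TTGCATCA, through which ATF4 acts with its C/EBP partners, was found in 4 members, or 11.1%, against 279 genes, or 1.03%. *Herpud1* thus holds both kinds of element, and its 2 sites are shown with those of *Atf3* and *Chac1*, again with the fixed letters in capitals.
*Herpud1* ERSE-II, chr8:94386368-94386397, plus strand: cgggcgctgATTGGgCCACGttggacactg
*Herpud1* C/EBP-ATF element, chr8:94386306-94386335, plus strand: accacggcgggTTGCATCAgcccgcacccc
*Atf3* C/EBP-ATF element, chr1:191183425-191183454, minus strand: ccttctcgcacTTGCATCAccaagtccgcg
*Chac1* C/EBP-ATF element, chr2:119351038-119351067, plus strand: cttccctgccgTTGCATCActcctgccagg

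The XBP1 element TGACGTGG was found in none of the 36 windows (0.714% of genes hold it), and the cyclic AMP element TGACGTCA was found in *Ppp1r15a* (2.78%, against 2.03% of genes). In all, 13 of the 36 windows held at least 1 of the 5 elements, or 36.1% against 3.91% of genes. The windows of *Edem1* and *Ern1*, which are described below, held none of these letters. A match of letters is a description of the window and not a measured binding site. The 9 members with an ERSE or ERSE-II had a median log2 fold change of 0.06 with apoE2, 0.13 with apoE3 and 0.05 with apoE4 against the control, and the 27 others with a window had 0.05, 0.10 and 0.07.

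In control neurons the lectin chaperones and the main ER chaperone led the list. Per kilobase of exon, *Calr* (calreticulin) had 166 ± 17.7 CPM (SD, n = 4), *Canx* (calnexin) 129 ± 6.93 and *Hspa5* (BiP, the HSP70 of the ER lumen) 101 ± 13.8, and *Atf4* came next with 68.0 ± 4.93. The order of *Calr* and *Canx* is clear of their spread, whereas *Hsp90b1* (GRP94) with 58.9 ± 4.57, *Asns* (asparagine synthetase) with 55.1 ± 7.62 and *Nars* (asparaginyl-tRNA synthetase) with 51.5 ± 8.80 lie within theirs. At the low end, *Ern1* had 1.05 ± 0.144 and *Trib3*, the pseudokinase that ATF4 and CHOP induce together, 0.287 ± 0.111. The transcription factor *Ddit3*, which encodes CHOP, had 12.4 ± 4.08, below *Atf4* and *Xbp1* (23.8 ± 2.76) by more than these spreads.

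**Figure D1:**
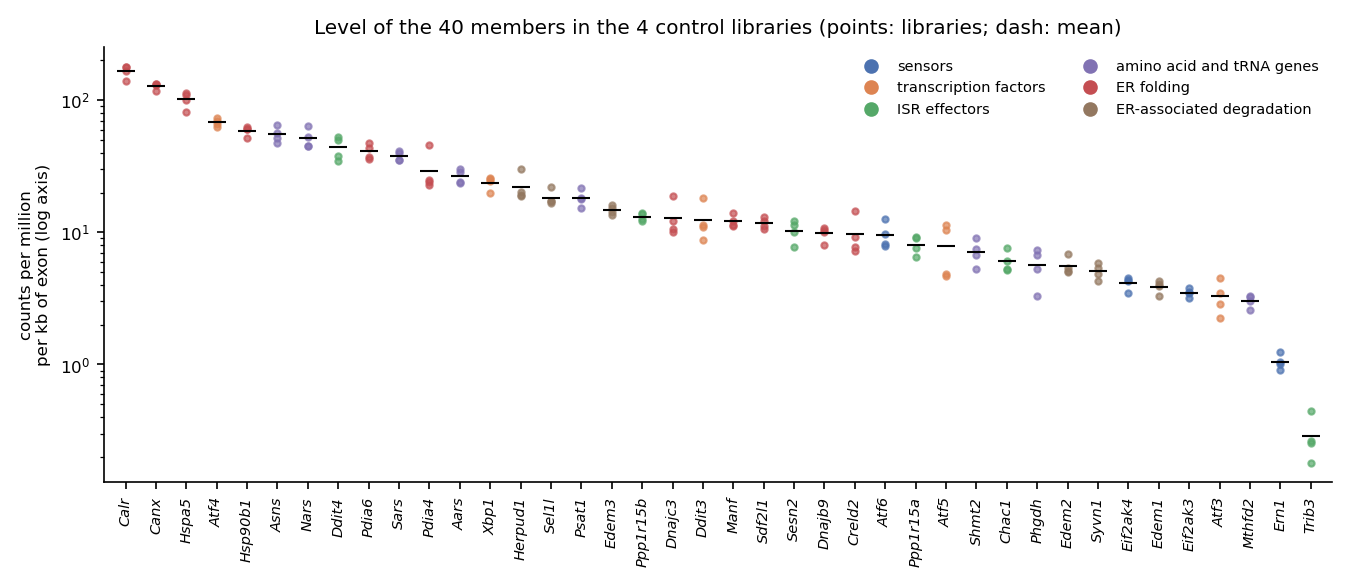
CPM per kilobase of exon (vertical axis, logarithmic) of the 40 members in the 4 control libraries, ordered by the mean, with 1 point per library, a dash at the mean and a colour for each role. Chaperones of the ER lead with *Calr* at 166, and *Ern1* (1.05) and *Trib3* (0.287) stand below all others.

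The study asked which genes each apoE isoform changes relative to medium without apoE, and without the block *Edem1* with apoE4 was the single listed gene that passed, a call lost for 11 of the 16 libraries when each was dropped in turn. In the edgeR quasi-likelihood fit, at an adjusted p under 0.05, 0 of 40 members passed with apoE2 (0.0% of all tested genes passed), 0 with apoE3 (0.00587% of genes) and 1 with apoE4 (0.194% of genes), the last being *Edem1*. At an unadjusted p under 0.05 the members numbered 0 with apoE2 (2.79% of genes), 2 with apoE3 (6.43% of genes), namely *Sdf2l1* and *Manf*, and 4 with apoE4 (3.3% of genes), namely *Edem1*, *Ern1*, *Ppp1r15b* and *Trib3*. DESeq2 called 0, 0 and 1 members in the same order. A change of at least 2-fold with an unadjusted p under 0.05, the looser criterion used for these libraries, was seen for 0 members with apoE2 (0.722% of genes), 0 with apoE3 (1.96%) and 1 with apoE4 (1.15%), which was *Trib3*.

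With the replicate number as a block, apoE2 gave 0 members (1.73% of all genes were called in that fit), apoE3 gave 3 (11.7%) and apoE4 gave 2 (3.3%). The 3 with apoE3 were *Sdf2l1*, *Dnajc3* and *Atf5*, and the 2 with apoE4 were *Edem1* and *Ern1*, and all 5 were higher than in control neurons. When each library was dropped in turn from this fit, the apoE3 count ran from 0 to 7 and the apoE4 count from 1 to 3. The 3 of 40 with apoE3 are a smaller share of the list than the 11.7% of all genes, and the 2 of 40 with apoE4 lie near the 3.3%. For apoE2, apoE3 and apoE4 in turn, the members had a median log2 fold change of 0.05, 0.11 and 0.05, against 0.01, 0.02 and 0.00 over all tested genes.

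Most members were bounded well inside a 2-fold change. In the fit without the block the 95% interval of the fold change lay between a 2-fold fall and a 2-fold rise for 36 of 40 members with apoE2, 33 with apoE3 and 33 with apoE4, and with the block for 39 of 40 in each comparison, *Trib3* being the exception each time. The groups did not overlap, every library with the isoform lying above every control library, for 0 members with apoE2 (2.19% of genes did not overlap in either direction), for *Sdf2l1* with apoE3 (2.59%) and for *Edem1* and *Ern1* with apoE4 (1.91%).

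**Figure D2:**
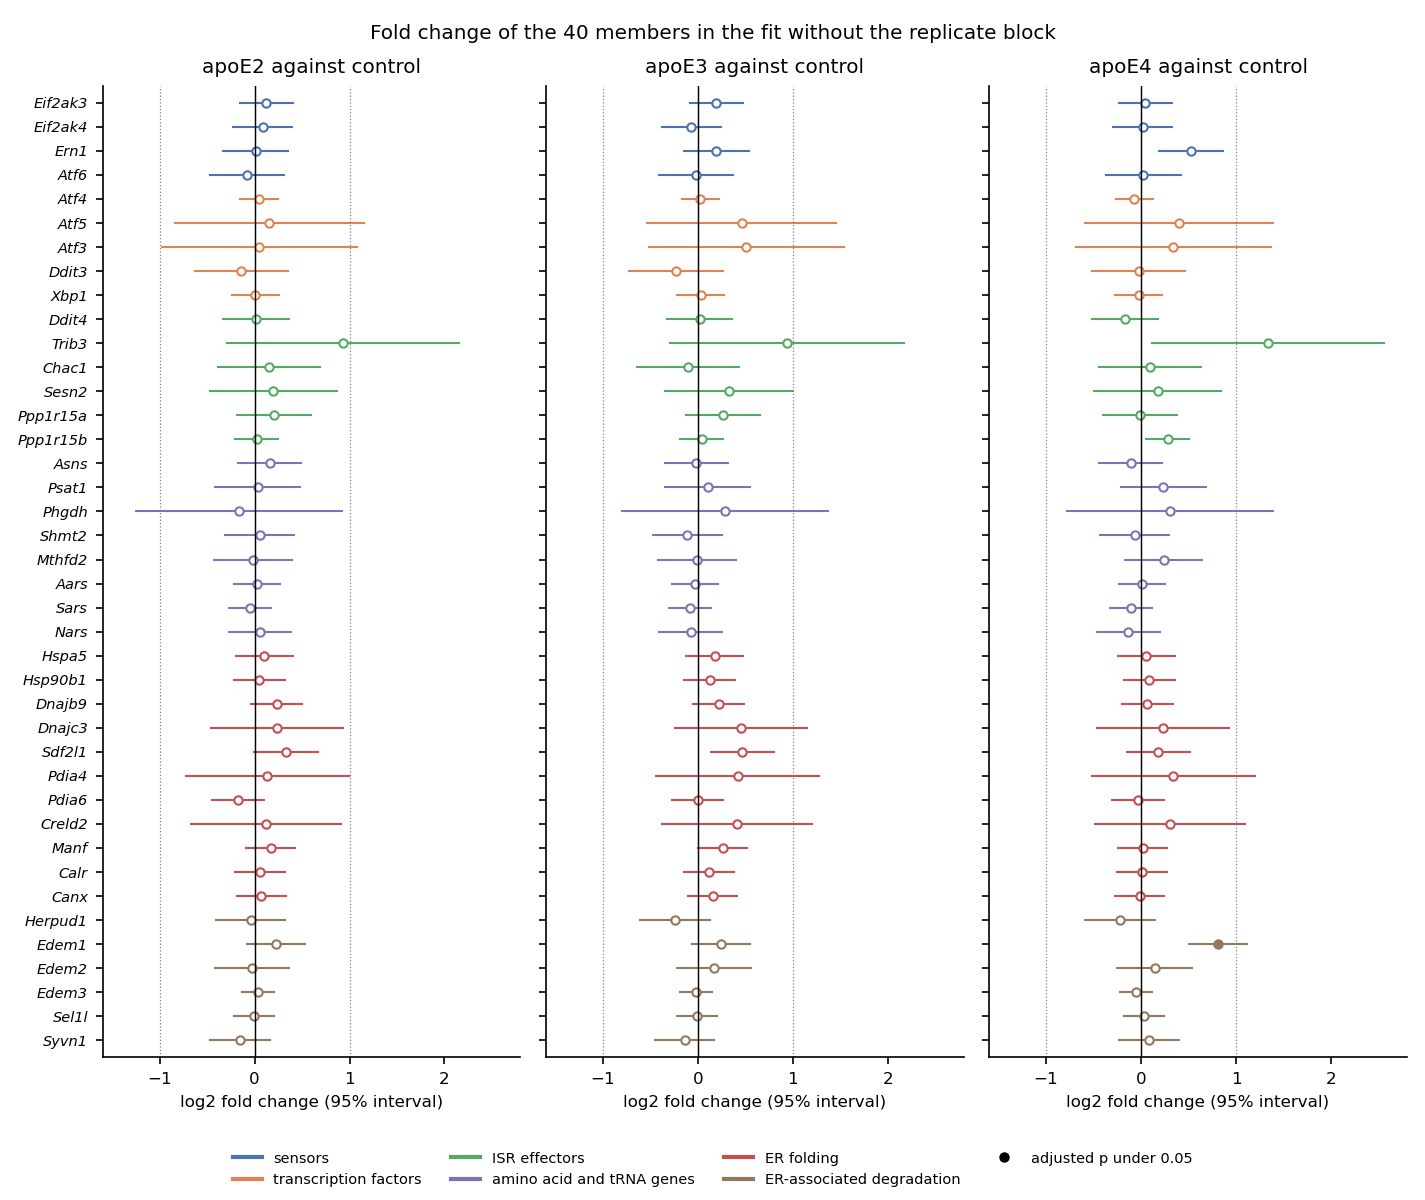
Log2 fold change against control (horizontal axis) of each of the 40 members with apoE2, apoE3 and apoE4 in the fit without the replicate block, with the 95% interval as a line, roles in colour, dotted lines at a 2-fold change and a filled point where the adjusted p is under 0.05. The single filled point is *Edem1* with apoE4 at 0.81, and *Trib3*, *Atf5*, *Atf3* and *Phgdh* have the widest intervals.

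Among the 6 genes of ER-associated degradation, which removes misfolded proteins from the ER, 1 rose with apoE4. *Edem1* (6: 108828641 to 108859356, plus strand, mm10) encodes a lectin of the mannosidase family that takes misfolded glycoproteins out of the folding cycle. Its level was 26.4, 21.1, 27.5 and 25.4 CPM in control replicates 1 to 4. With apoE4 it was 50.8, 34.2, 44.7 and 46.6 CPM. With apoE2 it was 29.1, 25.5, 34.3 and 28.4 CPM, and with apoE3 27.9, 24.5, 32.3 and 34.4 CPM. Replicate 2 was the lowest of each group, and every apoE4 library lay above every control library and, within its number, above the apoE2 and the apoE3 library. The fold change with apoE4 was 1.75, with a 95% interval of 1.42 to 2.17 (log2 0.81, SE 0.14, adjusted p = 0.0349, edgeR), and with the block it was 1.75 with an interval of 1.53 to 1.99 (adjusted p = 0.000121). Its exons overlap no other annotated gene. With apoE2 and apoE3 the folds were 1.17 (0.944 to 1.45) and 1.19 (0.958 to 1.47), which did not pass in either fit. When each of the 16 libraries was dropped in turn, the apoE4 call was lost 11 times, with an adjusted p between 0.00858 and 0.164 and a log2 fold change between 0.74 and 0.91 over the 16, and with the block it was kept in all 16 (6.88e-05 to 0.00114).

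The other 5 genes of this arm did not follow *Edem1*. *Herpud1* encodes a membrane protein that organises the degradation complex. It had 44.4, 70.3, 43.8 and 47.3 CPM in control neurons and 42.8, 53.8, 36.9 and 42.8 CPM with apoE4, so that all 4 apoE4 libraries were below the control library of their number. With apoE2 it had 49.7, 60.5, 39.3 and 50.4 CPM, and with apoE3 45.6, 50.1, 40.3 and 38.6 CPM. Its log2 fold change with apoE4 was -0.22, with an interval of -0.59 to 0.15 and, under the block, -0.39 to -0.03 at an adjusted p of 0.222 (edgeR), which did not pass. *Edem2* and *Edem3*, the paralogs of *Edem1*, had log2 fold changes of 0.14 and -0.05 with apoE4, and *Sel1l* and *Syvn1*, the scaffold and the ubiquitin ligase of the degradation channel, 0.03 and 0.09. The 5 had intervals within -0.59 and 0.54 in that comparison.

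Of the 4 sensors, *Ern1* stood apart with apoE4. *Ern1* (11: 106394650 to 106487852, minus strand, mm10) had 10.2, 8.49, 8.20 and 7.38 CPM in control neurons, 9.51, 7.87, 8.81 and 8.37 CPM with apoE2, 9.52, 7.71, 9.49 and 12.6 CPM with apoE3 and 14.3, 10.8, 11.7 and 12.6 CPM with apoE4. All apoE4 libraries lay above all control and all apoE2 libraries, and the range with apoE3 reached into that with apoE4 through replicate 4. The fold change with apoE4 against control was 1.44 (1.14 to 1.82), with an unadjusted p of 0.0051 and an adjusted p of 0.593 (edgeR). With the block it was 1.43 (1.18 to 1.74) with an adjusted p of 0.0403, and that call was lost for 10 of the 16 libraries when each was dropped in turn. With apoE2 and apoE3 the log2 fold changes were 0.01 and 0.20, neither passing in either fit.

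The remaining sensors moved little. *Eif2ak3* had 21.3, 22.7, 19.1 and 21.1 CPM in control neurons, 22.5, 25.6, 18.4 and 25.4 with apoE2, 25.3, 23.1, 22.6 and 25.6 with apoE3 and 21.2, 26.5, 17.7 and 21.5 with apoE4. The 4 apoE3 libraries were each above the control library of their number, by a log2 fold change of 0.20 (-0.08 to 0.47) that did not pass (adjusted p = 0.806, and 0.179 with the block, edgeR). *Atf6* had 73.1, 89.2, 116 and 75.2 CPM in control neurons, 78.2, 81.8, 101 and 74.6 with apoE2, 83.1, 82.3, 109 and 75.8 with apoE3 and 78.3, 91.8, 119 and 71.2 with apoE4. Replicate 3 was the highest in each group, and the replicate number took 91.0% of the variance of its log2 CPM against 1.81% between groups. *Eif2ak4* had log2 fold changes of 0.09, -0.07 and 0.02 with apoE2, apoE3 and apoE4.

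None of the 5 transcription factors was called without the block, and *Atf4* and *Xbp1* were the most tightly bounded. *Atf4* had 155, 166, 174 and 147 CPM in control neurons, 185, 176, 150 and 153 with apoE2, 163, 147, 177 and 167 with apoE3 and 141, 159, 152 and 159 with apoE4. Its 16 values spanned 1.31-fold, and the intervals of its log2 fold changes reached from -0.15 to 0.25 with apoE2, -0.17 to 0.23 with apoE3 and -0.27 to 0.13 with apoE4. *Xbp1* had 64.0, 81.7, 79.9 and 83.5 CPM in control neurons, 71.6, 76.0, 72.2 and 91.4 with apoE2, 73.4, 76.1, 79.6 and 86.5 with apoE3 and 63.0, 82.5, 73.6 and 84.7 with apoE4, and no log2 fold change exceeded 0.03 in size. *Ddit3*, the pro-apoptotic factor of the PERK arm, had 19.0, 31.2, 19.5 and 15.03 CPM in control neurons, 20.1, 26.4, 14.1 and 16.5 with apoE2, 20.1, 18.2, 15.4 and 18.9 with apoE3 and 18.2, 27.4, 19.0 and 18.6 with apoE4. Replicate 2 was the highest of its group except with apoE3, and the log2 fold changes were -0.14, -0.23 and -0.02, each with an interval that includes 0.

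*Atf5*, a bZIP factor whose translation follows that of ATF4, was called with apoE3 under the block. It had 20.6, 9.38, 9.63 and 22.8 CPM in control neurons, 30.6, 11.2, 9.73 and 18.1 with apoE2, 32.2, 10.99, 13.8 and 29.1 with apoE3 and 31.8, 11.5, 15.3 and 23.7 with apoE4. Replicates 1 and 4 were high and replicates 2 and 3 low in every group, and the groups overlapped. With apoE3 all 4 libraries were above the control library of their number, and the fold change was 1.38 (0.692 to 2.74, adjusted p = 0.824) without the block and 1.35 (1.11 to 1.65, adjusted p = 0.0478) with it (edgeR), a call lost for 10 of the 16 libraries when each was dropped. With apoE4 all 4 were above as well, by 1.325-fold with the block (1.088 to 1.615, adjusted p = 0.128), which did not pass. *Atf3*, an immediate stress factor, ranged from 2.95 to 16.1 CPM and had log2 fold changes of 0.05, 0.51 and 0.34 with apoE2, apoE3 and apoE4 and intervals wider than 2-fold.

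The 6 ISR effectors, which are ATF4 targets and the subunits that reverse eIF2α phosphorylation, gave 2 genes with an unadjusted p under 0.05 with apoE4. *Ppp1r15b* encodes the constitutive subunit that brings a phosphatase to eIF2α. It had 71.0, 76.9, 68.3 and 78.2 CPM in control neurons, 74.2, 72.9, 71.7 and 80.7 with apoE2, 73.8, 72.2, 73.0 and 83.9 with apoE3 and 93.5, 74.1, 81.7 and 108 with apoE4. Replicates 1, 3 and 4 with apoE4 were above all control libraries and replicate 2 was within them. The fold change with apoE4 was 1.21 (1.04 to 1.42, unadjusted p = 0.0188, adjusted p = 1.00) and with the block 1.21 (1.08 to 1.35, adjusted p = 0.0719, edgeR), so it did not pass. Of its exon bases 11.4% lie over an unnamed gene on the other strand, and whether the counting used the strand is not given in the sources used here. Genes on the other strand also lie over 10.3% of *Hsp90b1*, 8.85% of *Manf*, 8.05% of *Eif2ak3*, 4.73% of *Ddit3* and 4.11% of *Atf5*. Its stress-induced paralog *Ppp1r15a* (GADD34) had log2 fold changes of 0.21, 0.27 and -0.01 with apoE2, apoE3 and apoE4.

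*Trib3* had the largest fold of the list at the lowest level. Control neurons had 0.546, 0.563, 0.384 and 0.943 CPM. With apoE2 the values were 1.83, 0.955, 0.536 and 1.35 CPM, with apoE3 2.21, 0.451, 0.609 and 1.51 CPM and with apoE4 2.03, 0.570, 1.11 and 2.49 CPM. All 4 libraries with apoE2 and all 4 with apoE4 were above the control library of their number, and the groups overlapped in each comparison. The fold with apoE4 was 2.53 (1.09 to 5.91, unadjusted p = 0.0337, adjusted p = 1.00) and with the block 2.33 (1.39 to 3.92, adjusted p = 0.074, edgeR). It met the 2-fold criterion, and no longer did without apoE4 replicate 1 or 4 or without control replicate 1, 2 or 3. With apoE2 and apoE3 the folds were 1.91 (0.820 to 4.44) and 1.92 (0.818 to 4.52).

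The other ATF4 targets of this group gave no call. *Chac1*, a glutathione-degrading enzyme induced by ATF4, had 9.91, 12.5, 8.66 and 8.48 CPM in control neurons, 13.8, 14.8, 7.12 and 8.44 with apoE2, 10.8, 9.27, 9.07 and 7.68 with apoE3 and 11.7, 13.7, 7.03 and 9.82 with apoE4, with log2 fold changes of 0.15, -0.10 and 0.10. *Ddit4* (REDD1, an inhibitor of mTORC1) was below the control library of its number in all 4 apoE4 libraries, by a log2 fold change of -0.17 (-0.51 to 0.18). *Sesn2* (sestrin 2) had log2 fold changes of 0.20, 0.33 and 0.17.

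The 8 genes of amino acid synthesis and tRNA charging gave no call in either fit in the comparisons with control, and none had an unadjusted p under 0.05 without the block. *Asns* had 129, 178, 155 and 141 CPM in control neurons, 166, 202, 148 and 158 with apoE2, 145, 168, 165 and 118 with apoE3 and 122, 181, 128 and 128 with apoE4. Replicate 2 was the highest of each group, and the log2 fold changes were 0.16, -0.01 and -0.11. The synthetases *Aars*, *Sars* and *Nars* had log2 fold changes between -0.13 and 0.06 over the 3 comparisons, and *Psat1*, *Phgdh*, *Shmt2* and *Mthfd2*, which make serine and feed its carbon into folate metabolism, between -0.17 and 0.30. *Phgdh*, the entry enzyme of serine synthesis, ranged from 6.70 to 32.6 CPM and was the most variable of them.

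Of the 11 folding factors, 10 had a positive log2 fold change with apoE2, 10 with apoE3 and 9 with apoE4, and the medians were 0.12, 0.22 and 0.07. Over all 17038 genes, 8912, 8933 and 8583 were positive. In numbers 1 and 4, where oligodendrocyte-lineage and vascular markers were high, the mean log2 ratio to control was positive for 10, 11 and 10 of the 11, and in numbers 2 and 3 for 5, 5 and 5. Over all tested genes above 0 in the libraries used, 56.0, 53.1 and 50.3% were positive in numbers 1 and 4 and 51.1, 49.9 and 50.9% in numbers 2 and 3. The 5 transcription factors went from 5, 5 and 3 to 1, 1 and 1, the 6 degradation genes from 5, 4 and 5 to 1, 2 and 3 and the 8 amino acid and tRNA genes from 6, 5 and 4 to 3, 1 and 2. The 6 ISR effectors went from 5, 4 and 4 to 4, 3 and 4. The 4 sensors went from 4, 3 and 3 to 2, 2 and 4, so that with apoE4 they did not fall. *Hspa5*, for example, had 0.28 and 0.41 with apoE2 and apoE3 in numbers 1 and 4 and -0.06 and -0.05 in numbers 2 and 3. Number 1 gave the largest of these ratios for *Hspa5* (0.53 with apoE2 and 0.53 with apoE3). In number 1 the share of reads on no single gene was 61.8% in the control library and 71.6 to 73.7% in the others, and *Lars2* took 5.95% of gene counts in the control library and 12.2 to 15.02% in the others. The part of the cell mixture and of these library differences in the tally was not tested. *Hspa5*, the sentinel chaperone of the response, had 347, 476, 428 and 464 CPM in control neurons, 502, 468, 401 and 471 with apoE2, 500, 426, 448 and 565 with apoE3 and 373, 478, 408 and 523 with apoE4. The groups overlapped, and the intervals of its log2 fold changes were -0.20 to 0.40, -0.12 to 0.48 and -0.24 to 0.35. *Hsp90b1*, *Calr* and *Canx* lay between -0.02 and 0.16 in all 3 comparisons, and *Pdia6*, a disulfide isomerase, at -0.17, 0.00 and -0.03. The 4 apoE2 libraries of *Pdia6*, with 132, 126, 142 and 145 CPM, were each below the control library of their number, with 139, 134, 163 and 179 CPM, and the values were 151, 138, 157 and 169 with apoE3 and 121, 141, 156 and 184 with apoE4. The apoE2 difference of *Pdia6* did not pass (unadjusted p = 0.192, and 0.0411 with the block, adjusted p = 0.344, edgeR).

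*Sdf2l1*, a cofactor of BiP in the ER lumen, rose with apoE3 in the blocked fit. It had 11.7, 12.3, 13.6 and 14.6 CPM in control neurons, 20.1, 13.7, 13.1 and 18.7 with apoE2, 21.9, 14.9, 17.3 and 18.2 with apoE3 and 16.5, 13.4, 14.7 and 14.6 with apoE4. All apoE3 libraries were above all control libraries. The fold with apoE3 was 1.39 (1.10 to 1.75, unadjusted p = 0.0093, adjusted p = 0.676) without the block and 1.37 (1.15 to 1.63, adjusted p = 0.024) with it (edgeR), a call lost without apoE3 replicate 1 or 3 or control replicate 1 or 4. With apoE2 it was 1.26 (0.998 to 1.59), which did not pass. *Dnajc3* (p58IPK, an ER co-chaperone that restrains PERK) had 51.3, 63.0, 54.2 and 96.8 CPM in control neurons, 84.3, 61.0, 65.4 and 103 with apoE2, 88.1, 59.2, 71.8 and 145 with apoE3 and 67.3, 56.3, 57.3 and 130 with apoE4. Replicate 4 was the highest of every group, and with apoE3 replicates 1, 3 and 4 were above their control and replicate 2 below it. The fold with apoE3 was 1.37 (0.848 to 2.22, adjusted p = 0.806) without and 1.33 (1.11 to 1.60, adjusted p = 0.0421) with the block, and the call was lost for 11 of the 16 libraries when each was dropped.

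*Manf*, a secreted neurotrophic factor of the ER, had 40.1, 42.6, 39.1 and 49.3 CPM in control neurons, 54.8, 45.2, 41.7 and 50.6 with apoE2, 56.4, 42.8, 46.1 and 59.8 with apoE3 and 43.8, 44.3, 39.1 and 45.7 with apoE4. Its fold with apoE3 was 1.20 (1.00 to 1.44, unadjusted p = 0.0497, adjusted p = 0.77, and 0.0649 with the block, edgeR, against 0.044 in DESeq2 with the block, which calls it), with all 4 libraries above the control of their number. *Dnajb9* (ERdj4, a co-chaperone and XBP1 target) had 20.4, 27.6, 26.7 and 25.5 CPM in control neurons, 30.4, 30.2, 30.3 and 26.9 with apoE2, 27.6, 27.0, 28.3 and 33.9 with apoE3 and 24.6, 23.8, 24.1 and 32.4 with apoE4. Its folds with apoE2 and apoE3 were 1.18 (0.977 to 1.42) and 1.17 (0.968 to 1.40), neither passing. *Creld2* and *Pdia4* had log2 fold changes of 0.12 to 0.42 with intervals from -0.73 to 1.28 without the block. With the block, *Creld2* with apoE3 was 1.27-fold higher (1.06 to 1.51, adjusted p = 0.0751, 4 of 4 libraries above the control of their number, edgeR) and *Pdia4* 1.26-fold (1.01 to 1.58, adjusted p = 0.163), and neither passed.

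**Figure D3:**
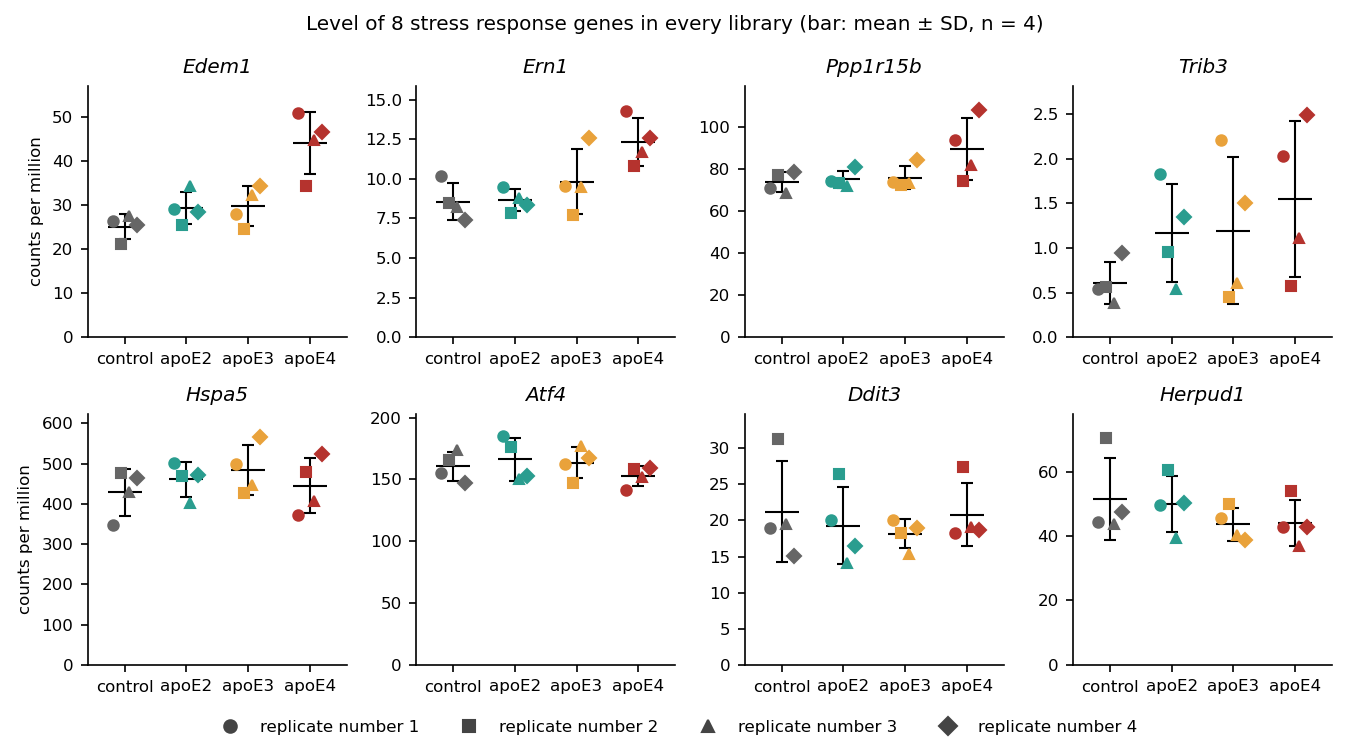
CPM (vertical axis from 0) of 8 members in the 16 libraries, with a marker shape for each replicate number and a bar for the mean and SD of the 4 libraries of a group. The 4 apoE4 libraries of *Edem1* (34.2 to 50.8) and *Ern1* (10.8 to 14.3) lie above all control libraries, whereas the groups of *Hspa5*, *Atf4*, *Ddit3* and *Herpud1* overlap.

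Between isoforms, the fit without the block called 0 of 40 members for apoE4 against apoE3 (0.147% of all genes were called), 0 for apoE4 against apoE2 (0.252%) and 0 for apoE3 against apoE2 (0.0%). At an unadjusted p under 0.05 there were 2 (4.7% of genes), 3 (5.34%) and 0 (2.28%) members, and DESeq2 called 0, 1 and 0. The first 2 were *Edem1* and *Ppp1r15b*, and the 3 were these and *Ern1*. With the block, 1 member was called for apoE4 against apoE3 (1.76% of genes), 2 for apoE4 against apoE2 (4.44%) and 0 for apoE3 against apoE2 (1.31%). The 1 and 1 of the 2 were *Edem1*. Its fold against apoE3 was 1.48 (1.195 to 1.83, adjusted p = 0.338) without the block and 1.48 (1.30 to 1.68, adjusted p = 0.00373) with it, and against apoE2 it was 1.502 (1.21 to 1.86, adjusted p = 0.154) and 1.495 (1.31 to 1.70, adjusted p = 0.00144, edgeR). The other call was *Ern1* against apoE2, with a fold of 1.43 (1.13 to 1.81, adjusted p = 0.40) without and 1.42 (1.18 to 1.72, adjusted p = 0.0362) with the block. Against apoE3 *Ern1* was 1.26-fold higher (0.992 to 1.59), which did not pass in either fit. The 3 comparisons with the control share the control libraries, and the comparisons between isoforms share isoform libraries with one another and with these.

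The levels of most members varied more with the replicate number than with the treatment. The replicate number took a median of 58.8% of the variance of log2 CPM over the 40 members and the group 12.3%, close to the 56.1% and 14.4% over all tested genes, and the number took more than the group in 33 of 40. *Edem1* was the clearest exception, with 73.6% between groups and 20.1% between numbers, followed by *Ern1* with 59.3% and 16.9%. *Phgdh*, *Atf5*, *Trib3*, *Atf3*, *Creld2*, *Pdia4* and *Sesn2* were on average 1.625 to 2.31 times higher in numbers 1 and 4 than in numbers 2 and 3. *Herpud1*, *Ddit3*, *Asns* and *Nars* were highest in number 2.

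The numbers also differed in markers of other cells. The neuron markers averaged 4780, 6430, 6890 and 3737 CPM in numbers 1 to 4, those of the oligodendrocyte lineage 670, 122, 230 and 576 CPM and those of vascular cells and fibroblasts 164, 20.5, 24.3 and 175 CPM. The astrocyte markers averaged 3321, 1504, 3092 and 4561 CPM. With apoE3 the astrocyte sum rose from 2144, 1418, 2492 and 3189 CPM in the control libraries to 4441, 1707, 3330 and 6633 CPM, and in the blocked fit 8 of the 9 astrocyte markers tested were called higher (11.7% of all genes were called). With apoE4 it was 3527, 1577, 3625 and 5405 CPM and 4 of 9 were called. With apoE2 it was 3174, 1316, 2920 and 3016 CPM and 0 of 9 were called. The 8 markers of dividing cells summed to 14.8, 10.5, 18.04 and 25.4 CPM in control neurons, 27.6, 26.0, 29.8 and 34.3 with apoE2, 44.0, 46.5, 33.9 and 47.4 with apoE3 and 37.3, 20.3, 24.7 and 50.7 with apoE4. With apoE2 and apoE3 much of this was *Top2a*, which had 2.18, 2.46, 4.57 and 7.44 CPM in control neurons, 8.88, 15.3, 13.1 and 21.4 with apoE2 and 26.5, 35.0, 15.8 and 16.5 with apoE3. With apoE4 *Top2a* had only 6.24, 5.79, 4.15 and 10.4 CPM. Without *Top2a* the sum was 12.59, 8.05, 13.47 and 17.96 CPM in control neurons, 18.74, 10.66, 16.7 and 12.87 with apoE2, 17.44, 11.48, 18.09 and 30.97 with apoE3 and 31.04, 14.54, 20.54 and 40.35 with apoE4. The groups overlapped, but every apoE3 and every apoE4 library lay above the control library of its number. With apoE2, replicate 4 lay below it. The part of dividing cells in the results of the members was not tested. The members called with apoE3 under the block, *Sdf2l1*, *Dnajc3* and *Atf5*, rose least or fell in number 2, where the astrocyte sum also rose least, with log2 ratios there of 0.28, -0.09 and 0.23, and the part of the glial markers in the result was not tested. The log2 ratio of apoE4 to control for *Edem1* was 0.95, 0.69, 0.70 and 0.87 in numbers 1 to 4. That of *Ern1* was 0.49, 0.35, 0.51 and 0.77, and that of *Trib3* was 1.90, 0.02, 1.53 and 1.40. Each of these was smallest in number 2, for *Edem1* by 0.69 against 0.70 in number 3. The astrocyte sum with apoE4 also rose least in number 2, and the part of the glial markers in these values was not tested.

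**Figure D4:**
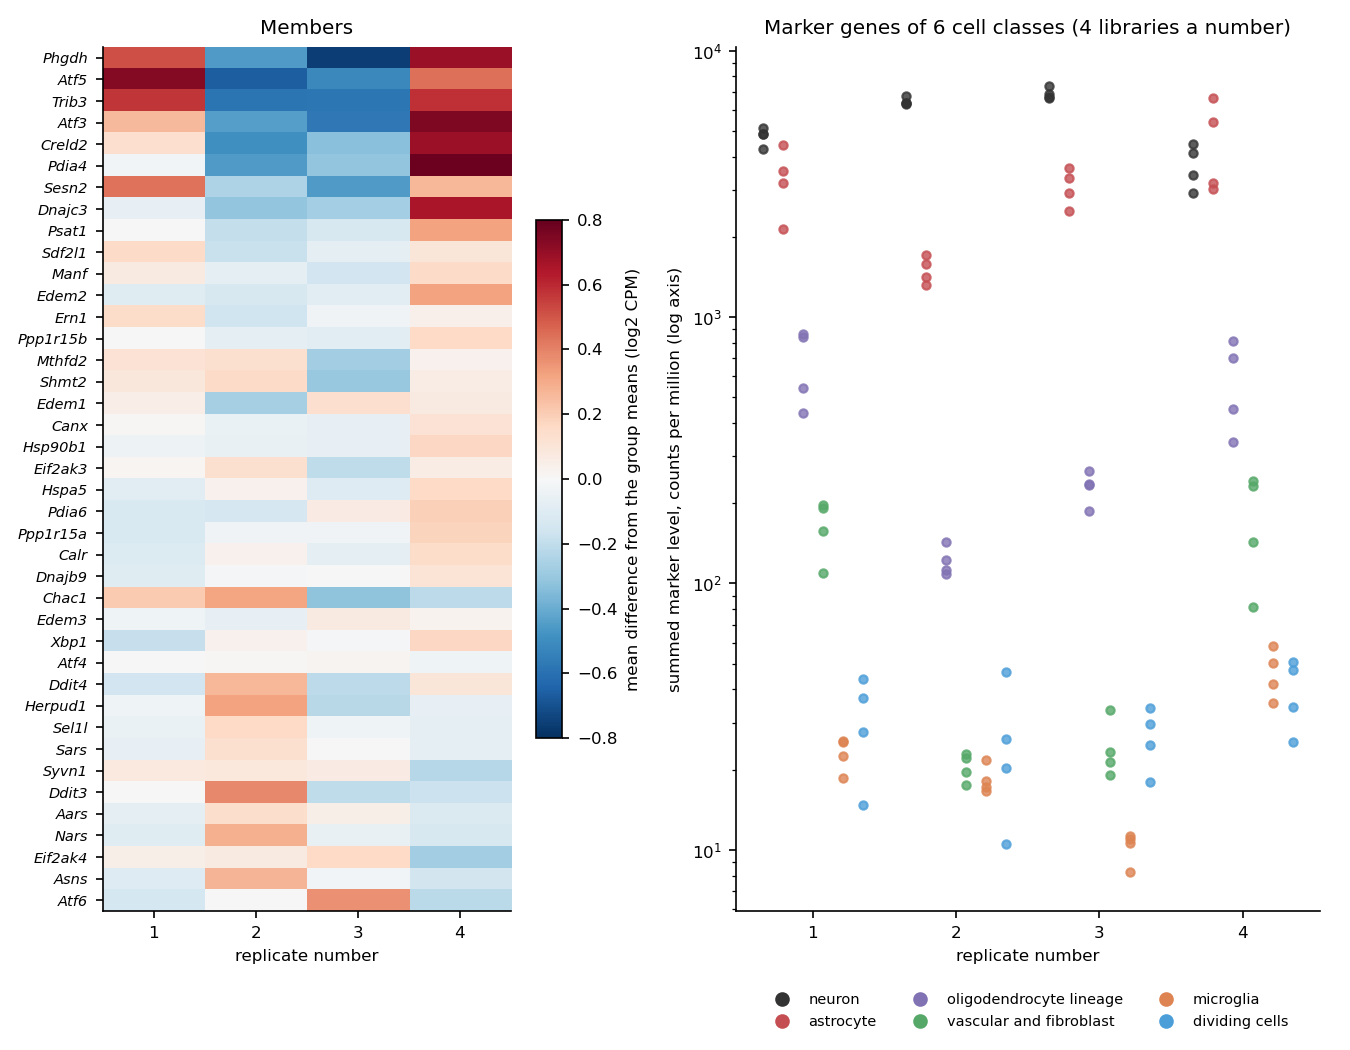
Left, the mean difference of log2 CPM from the group means in each replicate number (colour scale) for the 40 members, ordered by the ratio of numbers 1 and 4 to numbers 2 and 3. Right, the summed level of the marker genes of 6 cell classes (vertical axis, logarithmic, CPM) in the 4 libraries of each number, where numbers 1 and 4 hold fewer neuronal and more oligodendrocyte-lineage and vascular marker counts than numbers 2 and 3.

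Beyond the list, 49 other genes of the ISR and 52 other genes of the unfolded protein response and ER quality control were followed, of which 48 and 51 were tested. Without the block edgeR and DESeq2 both called 0 of them in each comparison with control. At an unadjusted p under 0.05 edgeR gave 0, 3 and 2 of the 48 ISR genes with apoE2, apoE3 and apoE4 and 1, 2 and 1 of the 51 others, where 2.79%, 6.43% and 3.3% of all genes had such a p. With the block 2, 10 and 3 ISR genes were called and 0, 1 and 0 of the others, where 1.73%, 11.7% and 3.3% of all genes were called. The ISR genes called with apoE3 included *Nupr1*, a stress-induced chromatin protein (log2 fold change 1.27, adjusted p = 0.00145), *Slc7a11*, the cystine transporter (1.11, adjusted p = 0.00344), *Cebpb*, a partner of ATF4 (1.07, adjusted p = 0.00502), and *Bcl2l11*, which encodes the pro-apoptotic protein BIM (1.34, adjusted p = 0.00518). Of the 10, 9 were higher and *Got1* was lower. The other call with apoE3 was *Fkbp14*, a prolyl isomerase of the ER (0.49, adjusted p = 0.0385).

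With apoE4 the 3 ISR genes called under the block were all higher. *Slc7a11* had 33.4, 15.01, 21.1 and 54.2 CPM in control neurons and 108, 25.9, 42.9 and 182 CPM with apoE4 (log2 fold change 1.33, adjusted p = 0.00157, edgeR with the block). *Cebpg*, the C/EBP partner of ATF4 on its composite element, had 35.0, 38.4, 38.8 and 37.5 CPM in control neurons and 61.7, 41.4, 48.1 and 61.4 CPM with apoE4, with every apoE4 library above every control library (0.48, adjusted p = 0.019). *Cebpg* was also called with the block against apoE2 (0.61, adjusted p = 0.0038) and against apoE3 (0.45, adjusted p = 0.0442). *Eif2ak2*, which encodes the eIF2α kinase PKR, was the third (0.83, adjusted p = 0.0357), with 20.3, 7.77, 17.7 and 31.8 CPM in control neurons and 50.4, 9.83, 27.0 and 65.6 CPM with apoE4. *Slc7a11* and *Eif2ak2*, and *Nupr1*, *Slc7a11* and *Cebpb* with apoE3, were lowest and rose least in CPM in number 2, as the astrocyte sum did. *Cebpg* with apoE4 also rose least in number 2, though its control level was not lowest there. *Bcl2l11* rose least in number 4, with 6.41, 4.87, 2.65 and 16.7 CPM in control neurons and 19.3, 12.1, 12.8 and 22.0 with apoE3. The part of the astrocytes in these results was not tested. With apoE2 the calls were *Nupr1* (1.08, adjusted p = 0.014) and *Pck2*, the mitochondrial form of a gluconeogenic enzyme and an ATF4 target, which fell (-0.58, adjusted p = 0.0361).

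Cytosolic heat shock genes and activity-induced genes were followed beside them. Of 12 heat shock genes, 2 were called with each isoform under the block, *Bag3* and *Hspb1*, and none without it, beside the 1.73%, 11.7% and 3.3% of all genes. *Bag3*, a co-chaperone of HSP70, had log2 fold changes of 1.01, 1.63 and 1.27 with apoE2, apoE3 and apoE4 and *Hspb1*, the small heat shock protein HSP27, 1.77, 2.08 and 1.06. Both were low, with *Hspb1* at 2.77, 0.362, 2.48 and 7.49 CPM in control neurons and highest there in replicate 4, as the astrocyte sum was. With apoE2 *Hspb1* was again highest in replicate 4, but the astrocyte sum was highest in replicate 1. Of 10 immediate early genes, 3 were called with apoE3 under the block (11.7% of all genes), *Arc* (-0.97) and *Npas4* (-0.95), which fell, and *Junb* (0.31), which rose, and 0 with apoE2 and apoE4. Unadjusted p values under 0.05 without the block were given by *Hspb1* and *Npas4* with apoE3 and *Hspa1a* with apoE4.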

How the data were processed

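RNA was sequenced from 16 primary neuronal cultures, and the deposited values are raw counts per gene that the authors made with STAR on mm10 and HTSeq. The annotation counted and the strand setting are not given in the sources used here. Rows of HTSeq totals, which name no gene and held 38.4 to 73.7% of a library, entered neither library sizes nor tests. Groups and replicate numbers came from the labels. Tests used R 4.3.3 and the package edgeR 4.0.16, with TMM factors, filterByExpr (minimum count 10, minimum total 15, minimum proportion 0.7), 1 coefficient per group over all 16 libraries, the quasi-likelihood test and Benjamini-Hochberg adjustment within each of 6 comparisons over 17038 genes. CPM are TMM-scaled, and the variance shares use log2 CPM with a prior count of 2. Intervals are 95% and use the SE from the F statistic, which is the size of the log2 fold change divided by the square root of F. Without the block, p values measure the spread between the cultures of a group. With the block, they measure the spread left after the differences between replicate numbers are taken out.

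Correlations of deviations from the group means were 0.362 to 0.552, 0.766 to 0.831, 0.62 to 0.671 and 0.682 to 0.79 within numbers 1, 2, 3 and 4 and -0.736 to 0.569 between numbers. Every same-number correlation was over 0.1, so the numbers were taken as pairing the samples. The common dispersion was 0.132, and 0.0178 with the block.

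The members and lists were chosen with earlier results of these data known. Hubs of the pathways and the 4 members with the smallest p in each comparison with control, in either fit, are given in every library. Other genes are named where they were called, at most the 4 with the smallest p per list and comparison. *Got1* and *Hspa1a* fall outside this rule and were chosen after their values were seen. Positions and exon lengths are from GENCODE M21 (mm10). Alternatives were DESeq2 1.42.0, its size factors, no or a stricter low-count filter (1 CPM in 8 libraries), only the 2 groups compared, the replicate block and each library left out. The scripts were tested on simulated data.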

Additional observations from a re-analysis of the deposited data

Results flagged for a closer look

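For 19 members with values in every library, 76 groups of 4 libraries were checked for 1 library far from the other 3, by Dixon's ratio at its critical value for 4 samples, and 7 stood out, where chance flags about 1 in 20 groups. In replicate 2, *Ddit3* was 27.4 CPM with apoE4 against 18.2 to 19.0 in the others, *Asns* was 180.8 CPM with apoE4 against 122 to 128, and *Herpud1* was 70.3 CPM in control neurons against 43.8 to 47.3. In replicate 4, *Dnajb9* was 26.9 CPM with apoE2 against 30.2 to 30.4 and 32.4 CPM with apoE4 against 23.8 to 24.6, *Ppp1r15b* was 83.9 CPM with apoE3 against 72.2 to 73.8, and *Dnajc3* was 130.0 CPM with apoE4 against 56.3 to 67.3. All 7 fall in replicates 2 and 4, the numbers with the lowest and the highest mean sum of astrocyte markers, though with apoE2 the sum was highest in replicate 1. *Ddit3* and *Asns* in apoE4 replicate 2 and *Dnajb9* in apoE2 replicate 4 fall in the libraries that stood apart in their reads. The part of the cell mixture and of these library differences in these values was not tested.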

How the results depend on the processing

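Holding the replicate number as a block moved the members called from 0 to 3 with apoE3, from 1 to 2 with apoE4, from 0 to 1 for apoE4 against apoE3 and from 0 to 2 for apoE4 against apoE2, and DESeq2 with the block gave 4, 2, 1 and 3. The other pathway genes called moved from 0 to 2, 11 and 3 with apoE2, apoE3 and apoE4 under the block and to 3, 16 and 4 with DESeq2 and the block. The block left the members called at 0 with apoE2 and for apoE3 against apoE2, and its calls by gene and its other counts stand in the report. The apoE4 count fell from 1 to 0 with no low-count filter (*Edem1* adjusted p = 0.0793) and with only the 2 groups compared (adjusted p = 0.236), where fewer samples set the spread. DESeq2 called 1 member for apoE4 against apoE2. *Trib3* left the 2-fold criterion (count 0) under the stricter filter, by which it was not tested.

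Over the fits that leave out 1 library, the members called ranged from 0 to 1 with apoE4 and for apoE4 against apoE2 (1 without apoE4 replicate 2), from 0 to 1 at the criterion with apoE4 (0 without apoE4 replicates 1 and 4 and control replicates 1, 2 and 3), and stayed at 0 in the other comparisons and for the other pathway genes. The *Edem1* call was lost without apoE2 replicate 1 or 4, apoE3 replicate 1 or 3, apoE4 replicate 1, 3 or 4, or any control replicate. Leaving out libraries from the fit with the block was added after values had been seen. The count in those fits ranged from 0 to 7 with apoE3 (7 without apoE3 replicate 2, and 0 without apoE3 replicate 1 or 3 or control replicate 1), from 1 to 3 with apoE4 and stayed at 0 with apoE2. There, *Sdf2l1* was lost without apoE3 replicates 1 and 3 and control replicates 1 and 4, *Dnajc3* without 11 and *Atf5* without 10 of the 16 libraries, and *Ern1* without apoE2 replicates 2 and 3, apoE3 replicate 3, every apoE4 replicate and control replicates 1, 3 and 4. No fold change of the members named with values in every library, against control, was called and then turned its sign in any setting run, and the cause of the lost calls was not tested. With 4 libraries a group, the fit without the block left 4 members with apoE2 (*Trib3*, *Atf5*, *Atf3*, *Phgdh*) open to changes beyond 2-fold, these and *Creld2*, *Pdia4* and *Dnajc3* with apoE3, and the first 6 and *Edem1* with apoE4.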
